A study of Mus musculus with 8 samples.

Results

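The 9 genes described here encode transcription factors that build and maintain skeletal muscle: *Myod1*, *Myf5*, *Myf6*, *Myog*, *Pax7*, *Mef2a*, *Mef2c*, *Mef2d* and *Six4*. All array probes carrying one of these gene names were taken, which gave 18 of the 56605 probes. Tissue given as brown adipose tissue (BAT) came from C57BL/6J mice 12 weeks old, which the methods describe as males. The 4 control (Co) mice had received 100 μL of saline intravenously. The 4 Pg mice had received 100000000 colony-forming units of sonicated *Porphyromonas gingivalis*, a periodontal bacterium, in the same volume, and both groups were sampled 18 h later. The bacteria were sonicated, so the model is one of exposure to bacterial products and not of a living infection. RNA of each mouse was labelled with Cy3 and hybridised to its own 1-colour Agilent array, and the comparison asked how the injection altered transcript levels in this tissue.

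MYOD1, MYF5, MYF6 and MYOG are the myogenic regulatory factors, basic helix-loop-helix (bHLH) proteins that pair with E proteins and bind the E-box. MYF5 and MYOD1 commit cells to the muscle lineage, MYOG drives their differentiation, and MYF6, also called MRF4, is the member kept at a high level in mature fibres. MEF2 proteins are MADS-box factors that act together with them on muscle promoters, SIX4 is a homeobox factor that binds MEF3 sites upstream of them, and PAX7 marks the satellite cell, the stem cell of muscle. Brown adipocytes of the interscapular depot descend from precursors that once expressed *Myf5*, a history they share with skeletal muscle, and the muscle programme is held off as they mature.

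The promoters of these genes were searched for the motifs that the factors bind. In the RefSeq table (GRCm38.p6), 7 of the 9 genes had a window of 250 bases before to 50 bases after the gene start, in 10 windows. *Myod1* and *Myf6* had no entry. Each window was searched on both strands for the E-box (CANNTG), for a MEF2-type motif (CTANNNNTA) and for one MEF3 sequence (TCAGGTTTC). Of all 32851 windows of this length in the table, 72.3% held an E-box, 21.0% the MEF2-type motif, 0.429% the MEF3 sequence and 0.0822% all 3. Of the 10 windows of these genes 3 held an E-box, 4 the MEF2-type motif, 2 the MEF3 sequence and 4 (*Mef2d*, *Pax7*, 1 of *Six4* and 1 of *Mef2c*) none of them. The *Myog* window was among the 27 windows with all 3. The stretches of *Myog* (chr1:134289754-134290003, plus strand), *Myf5* (chr10:107486135-107486384, minus strand) and *Mef2a* (chr7:67372849-67373108, minus strand) are printed 5′ to 3′ with the matches in capitals. The MEF2-type motif left its 4 middle bases open, so a match need not be a MEF2 site, and the *Myf5* match held GGTT there. The *Mef2a* stretch runs 10 bases past the gene start, since its match crosses the start.
Myog: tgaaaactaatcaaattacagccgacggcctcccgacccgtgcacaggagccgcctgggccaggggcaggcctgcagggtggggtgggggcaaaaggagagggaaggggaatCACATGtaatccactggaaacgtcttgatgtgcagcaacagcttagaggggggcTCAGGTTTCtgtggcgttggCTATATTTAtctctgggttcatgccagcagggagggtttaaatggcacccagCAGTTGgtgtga
Myf5: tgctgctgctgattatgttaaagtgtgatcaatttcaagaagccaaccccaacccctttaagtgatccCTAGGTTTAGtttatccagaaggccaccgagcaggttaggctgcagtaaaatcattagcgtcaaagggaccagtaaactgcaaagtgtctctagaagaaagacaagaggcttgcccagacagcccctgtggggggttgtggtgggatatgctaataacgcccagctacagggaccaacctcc
Mef2a: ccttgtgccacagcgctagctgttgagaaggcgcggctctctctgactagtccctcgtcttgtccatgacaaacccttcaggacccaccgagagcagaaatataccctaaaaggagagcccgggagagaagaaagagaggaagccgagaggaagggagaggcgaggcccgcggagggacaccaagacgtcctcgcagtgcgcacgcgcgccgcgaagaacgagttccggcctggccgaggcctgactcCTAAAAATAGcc

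In the *Myog* stretch the E-boxes CACATG and CAGTTG began 138 and 12 bases before the gene start, the MEF3 sequence TCAGGTTTC 84 bases before it and the MEF2-type match CTATATTTA 64 bases before it. In *Myf5* and *Mef2a* the MEF2-type motif matched on both strands in an overlapping pair, which makes the capital run 1 base longer than the motif. A MEF3 match on the opposite strand also stood in 1 of the windows of *Six4*. These are matches of letters, and binding was not measured.

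Each probe is 60 bases long, and *Myod1*, *Myf5*, *Myf6*, *Myog* and *Pax7* had 1 probe each. *Mef2a* had 2 probes, *Mef2d* had 3, and *Mef2c* and *Six4* had 4 each. In the scanner files' mm9 coordinates the probe of *Myod1* lay at chr7:53633956-53634015 (plus strand), that of *Myog* at chr1:136188874-136188933 (plus strand), and those of *Myf5* and *Myf6* at chr10:106919974-106920033 and chr10:106930237-106930296 (both minus strand). Probes of 1 gene are told apart below by the base of the target transcript at which they start, as the files list it. The first 30 bases of 4 of the probes are shown. Hybridisation of the probes to other transcripts was not tested.
Myod1, start 1347: ttttgttgttgttgttgtagtccttcagtt
Myf5, start 2013: ttgtatatgccttaaaataacttgataaat
Myog, start 1228: atcttgggaaccttccagtgctttgtgtat
Mef2a, start 1784: agaaagcccttctgtaaaacgcatgaggat

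All spots lay on 1 slide read in 1 scan, with the Co arrays in one row and the Pg arrays in the other, so that slide row and group cannot be told apart. The scanner software called 34760 to 35830 probes per Co array above background, and 31132 to 34063 per Pg array. Values are log2 of the quantile-normalized signal. A level is that log2 signal, and a log2 fold change is the Pg mean minus the Co mean. The number of arrays limits the precision.

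Of the 18 probes, 16 were well above background on all 8 arrays and 2 on no array. RNA hybridising to *Myod1*, *Myf6*, *Myog*, *Pax7*, the 3 MEF2 genes and *Six4* was therefore measured in the tissue of every mouse. The single *Myf5* probe was above background on none of them. Its log2 signal of 2.06 to 2.11 lay under the lowest signal called above background, which was 3.72 to 4.72 depending on the array. *Six4* at start 1384 was the other, at 2.15 to 2.59. It targets a predicted transcript, and its 60 bases were spread over 266 bases of the genome, across an exon boundary. No fold is given for either probe.

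The label of the tissue was checked against marker genes. Of 15 brown adipocyte genes 11 were above background on all 8 arrays, among them *Cidea*, while 4 were above background on no array: *Ucp1*, the uncoupling protein that defines the brown adipocyte, *Elovl3*, *Slc27a2* and *Bmp8b*. By quantitative PCR the paper measured *Ucp1* in BAT and reported it lower in Pg mice. Whether the 11 genes are confined to brown adipocytes was not tested. All 20 genes of a skeletal muscle fibre list and all 12 adipocyte genes were above background on all 8 arrays. Over the 8 arrays the mean level of the adipocyte list lay between 11.09 and 11.86. That of the 11 brown adipocyte genes lay between 11.75 and 11.96, so both were far under the muscle fibre list. The mean level of the muscle fibre list was 17.09, 17.17, 16.77 and 17.13 on the Co arrays and 16.54, 17.14, 17.13 and 16.94 on the Pg arrays, so the groups overlapped (exact two-sided permutation test, p = 0.6). Quantile normalization fixes the values of the top ranks, so the brightest members could hardly show a difference. *Tnnt3* was at 18.84 and *Tnni2* at 18.81 on every Pg array. The list mean moved mainly with *Myh4* (11.38 to 17.07 over the 8 arrays), *Actn3* (10.49 to 14.01) and *Pvalb* (14.39 to 16.29). The test therefore cannot decide whether muscle RNA differed between the groups. The samples are whole-tissue RNA, in which fewer cells of a type and less RNA per cell cannot be told apart. The share of the tissue that was muscle was not measured.

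**Figure D1:**
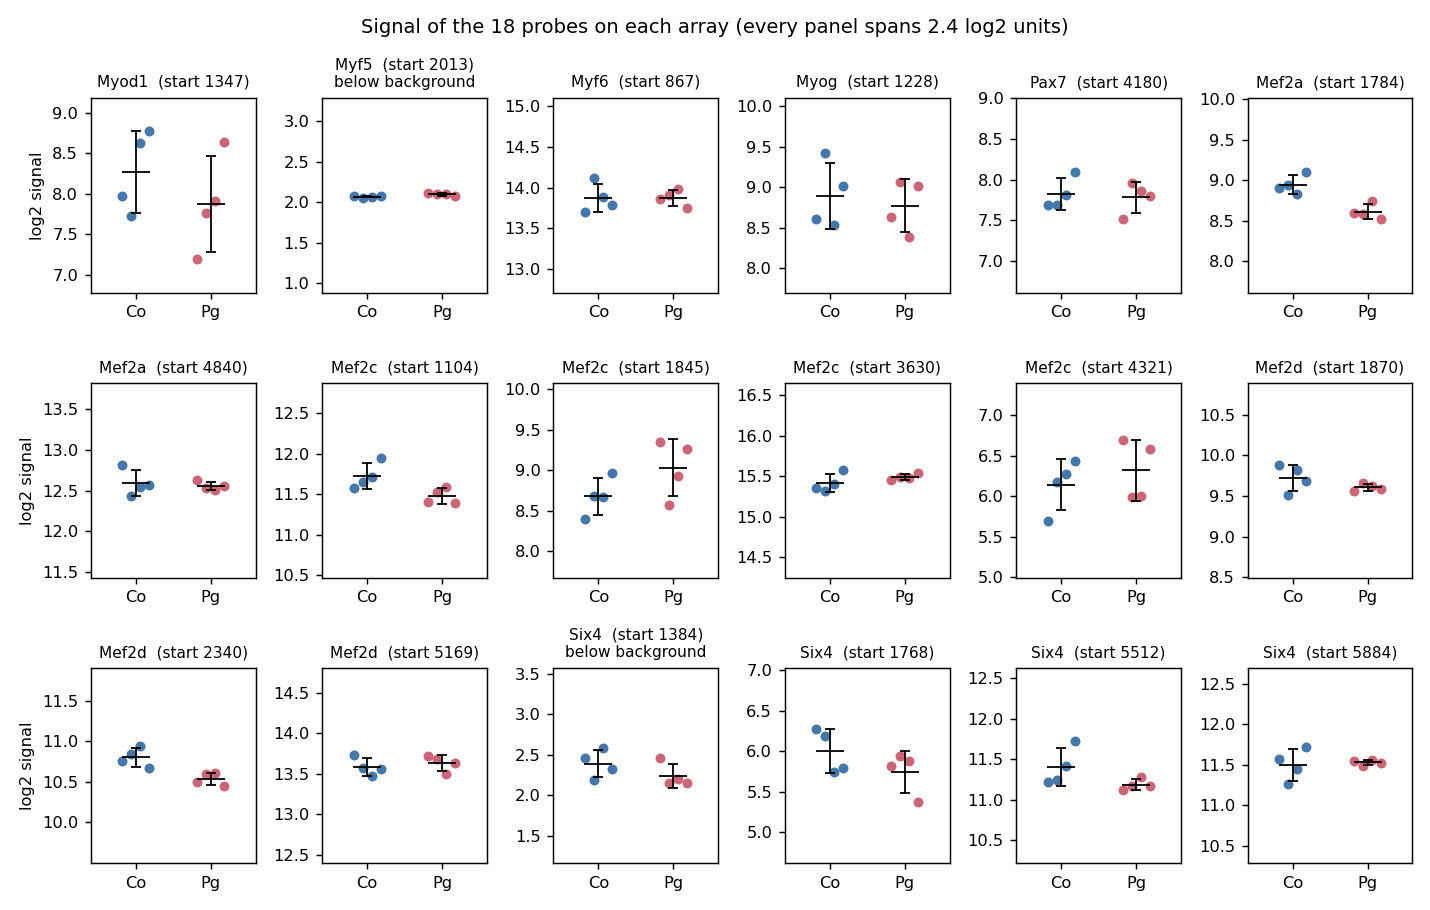
Log2 signal of each of the 18 probes on the 4 Co arrays (blue) and the 4 Pg arrays (red), with the group mean and SD in black. Every panel spans the same height, and only the *Mef2a* probe at start 1784 and the *Mef2d* probe at start 2340 show groups that do not overlap.

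None of the 16 probes was a differentially expressed probe (FDR q under 0.1 and fold change above 1.5), against 1.61% of the 33819 probes tested. In the limma fit across all tested probes, 1 of the 16 had a q under 0.1, the *Mef2a* probe at start 1784, against 7.82% of all probes. At an unadjusted p under 0.05 there were 3 of 16, all lower in Pg mice, against 22.8% of all probes in either direction. The Co and Pg values did not overlap for 2 of 16 probes, against 15.8% of all. The median log2 fold change of the 16 probes was -0.07 and that of all tested probes -0.04. Of the 16, 11 were lower in Pg mice, where 57.7% of all probes were lower, and without normalization between arrays 9 of 16 were lower. These shares lay near or under the background, and the probes of 1 gene share its transcripts.

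*Myod1*, which commits cells to muscle, had the largest fitted difference of the 16 probes on all 8 arrays and also the widest spread. Its level was 7.97, 7.72, 8.62 and 8.77 in Co mice and 7.19, 7.76, 7.91 and 8.64 in Pg mice. The groups overlapped: the lowest value was a Pg mouse, but another Pg mouse was higher than 3 of the 4 Co mice. The log2 fold change was -0.40 ± 0.34 (SE, n = 4 per group) with a q of 0.53, and the 95% interval ran from -1.19 to 0.40. The SD within groups was 0.55, higher than that of 94% of all tested probes, whose median was 0.16. The log2 fold change ran from -0.17 without Pg replicate 1 and -0.23 without Co replicate 4 to -0.65 without Pg replicate 4.

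*Myog*, the differentiation factor, was at 8.61, 9.42, 8.53 and 9.02 in Co mice and at 8.63, 9.06, 8.38 and 9.02 in Pg mice. The values interleaved, with a log2 fold change of -0.12 ± 0.23 and a q of 0.79. Its 95% interval, -0.66 to 0.42, does not exclude a fall of 1.5-fold. Its SD within groups, 0.37, was also above that of most probes. The sign of this small difference turned to 0.06 without Co replicate 2 and to 0.01 without Pg replicate 3.

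*Myf6*, the factor of mature fibres, had the same mean in both groups. Its level was 13.70, 14.11, 13.89 and 13.79 in Co mice and 13.85, 13.90, 13.98 and 13.75 in Pg mice. The group means were 13.87 ± 0.18 and 13.87 ± 0.095 (SD, n = 4), and the 95% interval of the difference, -0.23 to 0.23, was narrower than a 1.5-fold change in either direction. The SD of *Myf6* within groups was 0.14, higher than that of 45.8% of all tested probes.

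The genes whose centred levels ran closest to these factors over the 8 arrays were found by the root mean square difference among all tested probes with a gene name. For *Myod1* these were *Apobec3* and *Wipf1*, at 0.20 and 0.21 log2 units. For *Myog* they were *Asb3* and *Fbxo5*, at 0.12 and 0.15. For *Myf6* they were *Mbtps1* and *Gm42102*, at 0.046 and 0.048. With 8 arrays and 33819 probes such neighbours are a description only.

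*Pax7*, the satellite cell factor, was at 7.69, 7.68, 7.80 and 8.10 in Co mice and 7.51, 7.95, 7.85 and 7.80 in Pg mice. The values overlapped throughout, and the log2 fold change was -0.04 ± 0.13 with a q of 0.88. The 95% interval of -0.33 to 0.26 lay inside 1.5-fold.

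*Six4*, which acts upstream of the myogenic factors together with EYA cofactors, had 3 probes above background that gave different signs. The probe at start 5512 was at 11.22, 11.24, 11.42 and 11.72 in Co mice and at 11.12, 11.17, 11.28 and 11.17 in Pg mice. Its groups overlapped through the Pg array at 11.28, with a log2 fold change of -0.22 ± 0.12 and a q of 0.31. With an array left out the log2 fold change ran from -0.28 (without Co replicate 1) to -0.11 (without Co replicate 4). The probe at start 5884, 192 bases further along the genome (mm9), had a log2 fold change of 0.03 and a q of 0.88. The probe at start 1768 had a log2 fold change of -0.25 and a q of 0.42, with Co values of 5.75 to 6.28 and Pg values of 5.37 to 5.94. That difference was between -0.13 and -0.06 with normexp, the median signal, 75th percentile scaling, no normalization or the authors' table, and -0.12 without Pg replicate 4.

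**Figure D2:**
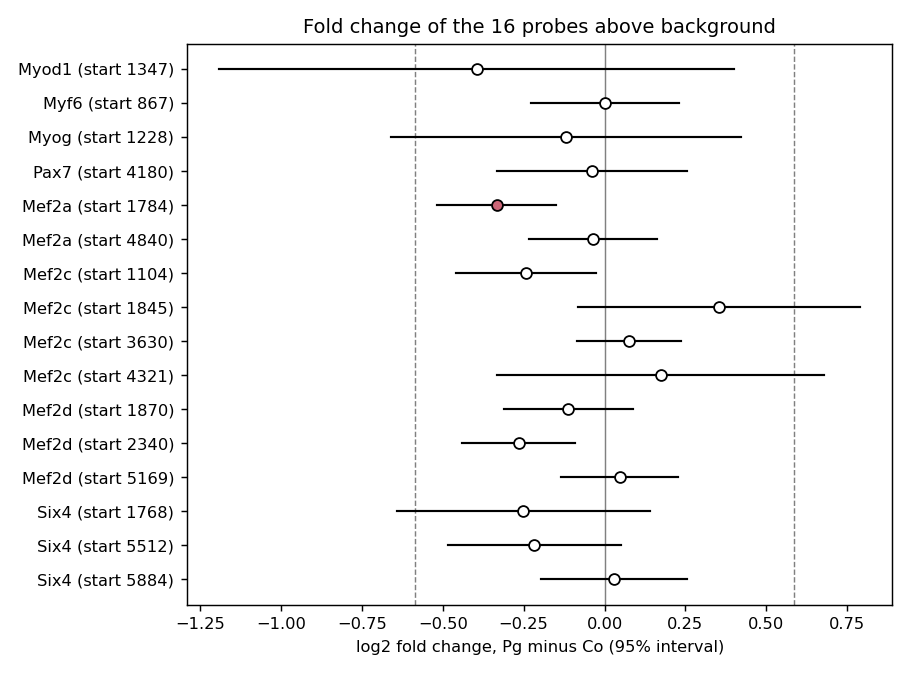
Log2 fold change (Pg minus Co) of the 16 probes above background, with unadjusted 95% intervals from limma. The filled point is the 1 probe with a q under 0.1, dashed lines mark a 1.5-fold change, and 11 of the 16 intervals lie between them.

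The 95% intervals of 11 of the 16 probes lay within a 1.5-fold change. The 5 that reached past it belonged to *Myod1*, *Myog*, *Six4* at start 1768 and *Mef2c* at starts 1845 and 4321.

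*Mef2a* had the only probe of these genes with a q under 0.1. At start 1784 its level was 8.90, 8.94, 8.83 and 9.11 in Co mice and 8.59, 8.59, 8.74 and 8.52 in Pg mice. Every Pg array was under every Co array, and the closest pair was 8.83 in a Co mouse and 8.74 in a Pg mouse. The log2 fold change was -0.33 ± 0.079 (SE, n = 4 per group), a fold of 0.794, with a q of 0.072. The second probe, at start 4840 and 2933 bases further along the genome, was at 12.82, 12.43, 12.55 and 12.57 in Co mice and at 12.63, 12.53, 12.51 and 12.56 in Pg mice. There the groups overlapped fully, with a log2 fold change of -0.04 ± 0.086 and a q of 0.83. The call at start 1784 was lost when any 1 array other than Pg replicate 3 was left out, with q values from 0.12 to 0.15 and log2 fold changes from -0.37 to -0.28. Without Pg replicate 3 the q was 0.074.

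*Mef2d* showed the same order at its middle probe. At start 2340 its level was 10.76, 10.84, 10.95 and 10.67 in Co mice and 10.50, 10.59, 10.61 and 10.45 in Pg mice. The groups did not overlap, and the log2 fold change of -0.27 ± 0.075 had a q of 0.10, just above the threshold. The probe at start 1870, whose 60 bases crossed an exon boundary, gave -0.11 with a q of 0.48. With an array left out it gave from -0.18 (without Co replicate 2) to -0.06 (without Co replicate 1). The probe furthest along, at start 5169, gave 0.05 with a q of 0.75, and its Co values of 13.47 to 13.73 covered its Pg values of 13.49 to 13.71.

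*Mef2c* had probes on both sides of 0. At start 1104, across an exon boundary, its level was 11.57, 11.65, 11.71 and 11.95 in Co mice and 11.41, 11.52, 11.59 and 11.39 in Pg mice, with 1 Pg array just above the lowest Co array. The log2 fold change was -0.24 ± 0.094 with a q of 0.18. At start 3630 it was 0.07 with a q of 0.56. The remaining probes, at starts 1845 and 4321, target an Ensembl transcript and lie upstream of the other two in the gene, at chr13:83665698-83665757 and chr13:83668174-83668233 (mm9, plus strand). The first of them was at 8.40, 8.69, 8.67 and 8.96 in Co mice and 9.35, 8.58, 8.94 and 9.26 in Pg mice, the largest positive difference among the 16 probes, at 0.35 ± 0.19 with a q of 0.31. The second gave 0.17 with a q of 0.67, and from 0.02 without Co replicate 1 to 0.28 without Pg replicate 2. Neither of these 2 probes had a q under 0.1, and the groups overlapped at both.

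Within *Mef2a*, *Mef2c* and *Mef2d* the largest negative differences stood at probes upstream of the last probe of the gene, and the last probes gave between -0.04 and 0.07. The exceptions were the *Mef2c* probes at starts 1845 and 4321, which are upstream and gave positive differences. This was set beside the arrays as a whole. Over 3019 RefSeq transcripts with tested probes at least 500 bases apart (median 1468 bases), all above background on all 8 arrays, the upstream minus the downstream probe had a median of -2.45, -2.43, -2.46 and -2.48 on the Co arrays. It was -2.61, -2.61, -2.57 and -2.67 on the Pg arrays. All Pg arrays were lower than all Co arrays, by 0.16 log2 units between the group means (exact two-sided permutation test, p = 0.0286, the smallest that 4 against 4 can give). The median log2 fold change was -0.13 for the upstream probes and 0.00 for the downstream probes of these transcripts. The median of the difference between the 2 fold changes was -0.131, and -0.085 without normalization. With 75th percentile scaling it was the same -0.085, because 1 factor per array cancels between 2 probes of that array. A q under 0.1 with a lower value in Pg mice was found at 13.8% of the upstream and 4.01% of the downstream probes. The part of this difference in the *Mef2a* call was not tested.

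**Figure D3:**
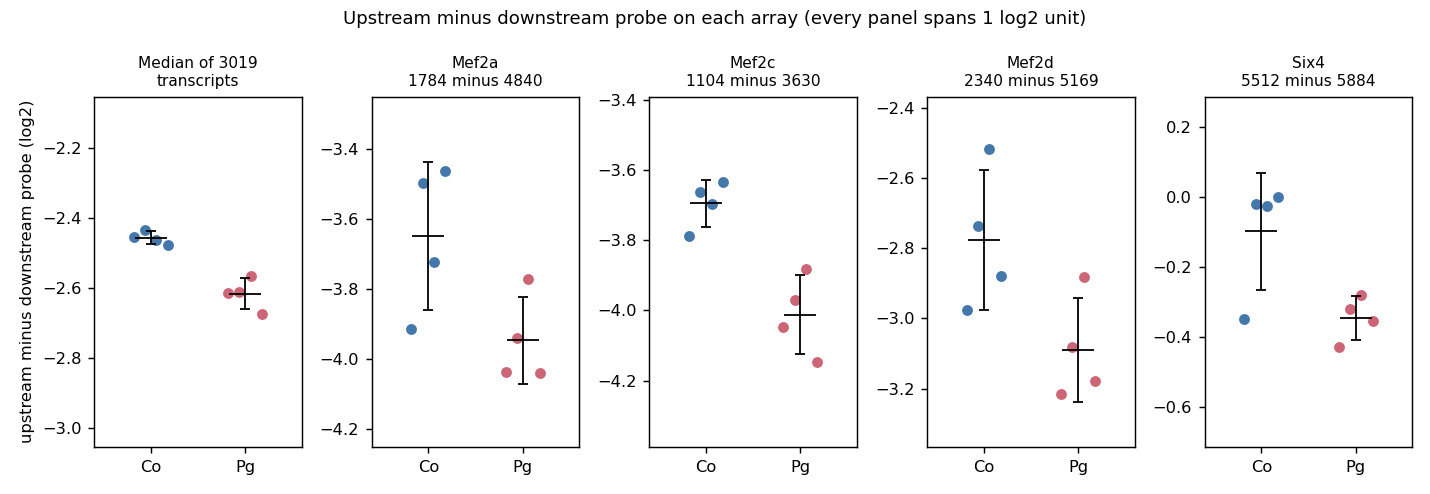
Upstream minus downstream probe (log2) on each Co array (blue) and Pg array (red) as the median of 3019 transcripts, and for the last 2 tested probes along *Mef2a*, *Mef2c*, *Mef2d* and *Six4*, named by their start positions, with the group mean and SD in black. The Pg mean is under the Co mean in all 5 panels, and the groups do not overlap for the median and for *Mef2c*.

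For the last 2 tested probes along each gene, the difference between probes was lower in Pg mice by 0.30 log2 units in *Mef2a*, 0.32 in *Mef2c*, 0.31 in *Mef2d* and 0.25 in *Six4*. In the *Mef2c* pair, starts 1104 and 3630, the Co arrays were at -3.79, -3.66, -3.69 and -3.63 and the Pg arrays at -4.05, -3.97, -3.88 and -4.15. The groups did not overlap, with an exact permutation p of 0.0286. Other pairs ran the other way. In the *Mef2c* pair of starts 1845 and 1104 the difference between probes was higher in Pg mice by 0.60, the largest of all pairs, with no overlap and the same exact p, and in the *Mef2d* pair of starts 1870 and 2340 it was higher by 0.15. Over all 13 pairs of tested probes within a gene, 7 differences were negative and 2 did not overlap between groups, 1 in each direction. Among the 3019 transcripts the upstream probe had the lower log2 fold change in 70.8%. The share of those transcripts whose groups did not overlap is not given here, so the 2 of 13 have no background beside them. No pair passed after Benjamini-Hochberg adjustment over the 13, with a lowest adjusted exact p of 0.186. With a smallest exact p of 0.0286 at least 4 pairs would have had to reach it for any to fall under 0.1, so that the design leaves little room for a call.

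**Figure D4:**
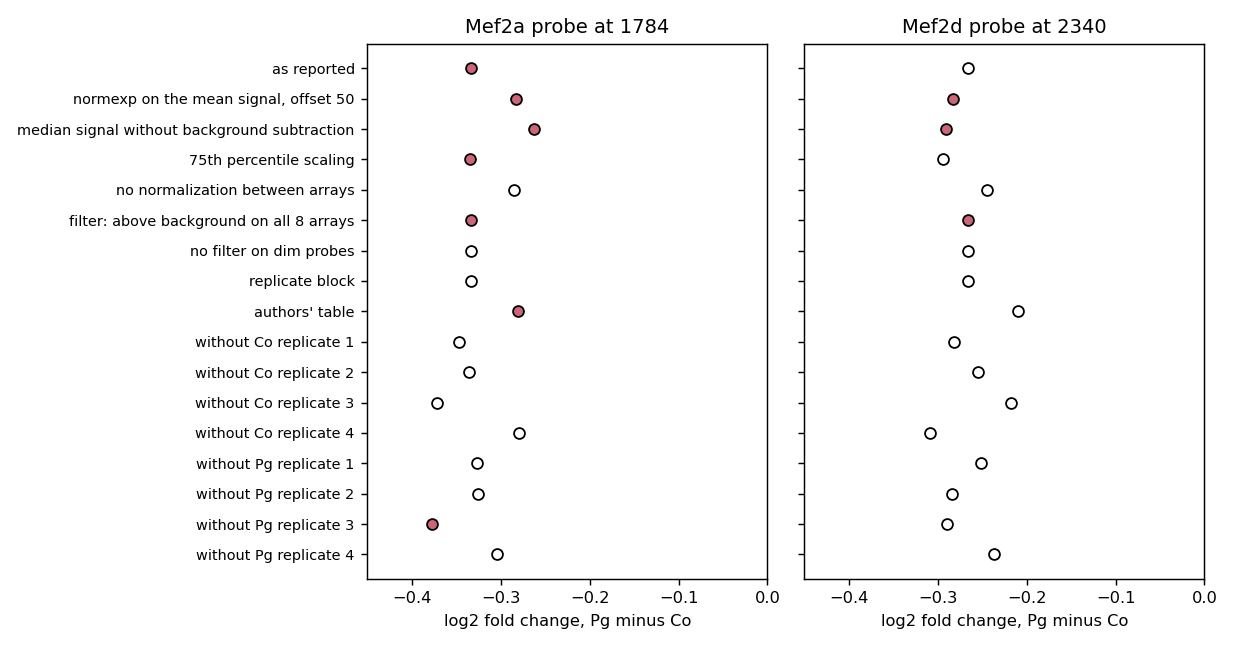
Log2 fold change (Pg minus Co) of the *Mef2a* probe at start 1784 and the *Mef2d* probe at start 2340 as reported and under 16 other settings, with filled points where the q was under 0.1. Every point is negative, and 7 of 17 are filled for *Mef2a* and 3 of 17 for *Mef2d*.

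The genes that work with these factors were read from 5 lists of 91 genes in all, each gene by its brightest tested probe. Of these, 90 were tested and 85 were above background on all 8 arrays. In the fit over all probes 5 of 90 had a q under 0.1, 3 higher and 2 lower in Pg mice, against 6.23% of the 22323 genes tested (2.05% higher and 4.18% lower). The median log2 fold change was -0.01 for the 90 genes and -0.01 for all genes. *Pax3*, the relative of *Pax7* that acts in the embryo, was above background on no array.

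Among the E proteins, ID proteins and other repressors, 2 of 20 rose and 1 fell, and the median log2 fold change was 0.13. The ID proteins bind E proteins without binding DNA and so keep them from the myogenic factors. *Id1* was at 11.45, 11.61, 11.58 and 11.69 in Co mice and at 12.18, 11.90, 12.07 and 12.18 in Pg mice. All Pg arrays were above all Co arrays, with a log2 fold change of 0.50 and a q of 0.049, and the call was lost without Co replicate 2 or 3. *Id3* rose by 0.33 (q = 0.092), and of the 8 fits without 1 array only the one without Pg replicate 3 kept the call. With 75th percentile scaling (0.30, q = 0.12) or without the filter on dim probes (q = 0.14) it was lost as well. *Id2* (0.38, q = 0.24) and *Id4* (0.13, q = 0.83) did not pass. The E protein genes *Tcf3*, *Tcf4* and *Tcf12* had log2 fold changes of 0.00, 0.15 and -0.04, none with a q under 0.1.

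*Twist1*, a bHLH factor that can hold back MYOD1, was the only one of the 90 genes whose brightest probe met both thresholds of a differentially expressed gene, against 1.18% of all genes tested. It was at 6.11, 5.84, 5.67 and 5.69 in Co mice and at 5.23, 4.80, 4.94 and 5.37 in Pg mice, which did not overlap. Its log2 fold change was -0.74 (q = 0.059), but it was short of 1.5-fold with normexp (-0.35), with the median signal not corrected for background (-0.35) and in the authors' table (-0.49). With 75th percentile scaling (-0.61, q = 0.11) and without normalization (-0.56, q = 0.22) the q was above 0.1. The call was lost without any 1 Co array or without Pg replicate 1 or 2.

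Of 18 MEF2 relatives and cofactors 1 rose and 1 fell. *Hdac7*, a class IIa histone deacetylase that binds and represses MEF2, rose by 0.34 (q = 0.051), with Co values of 10.37 to 10.48 below Pg values of 10.67 to 10.85, and was lost without Co replicate 2 or 3. *Ep300*, an acetyltransferase that coactivates MEF2 and MYOD1, fell by 0.53 (q = 0.044), with Co values of 9.15 to 9.45 above Pg values of 8.65 to 8.88, and was lost without Co replicate 3. *Hdac4*, *Hdac5* and *Hdac9*, of the same class, had log2 fold changes of -0.30, 0.06 and 0.26 that did not pass. *Mef2b* had the largest difference of the list, 0.72, which did not pass (q = 0.42), and there 1 Pg array at 8.51 stood above the other Pg arrays at 5.95 to 6.71.

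**Figure D5:**
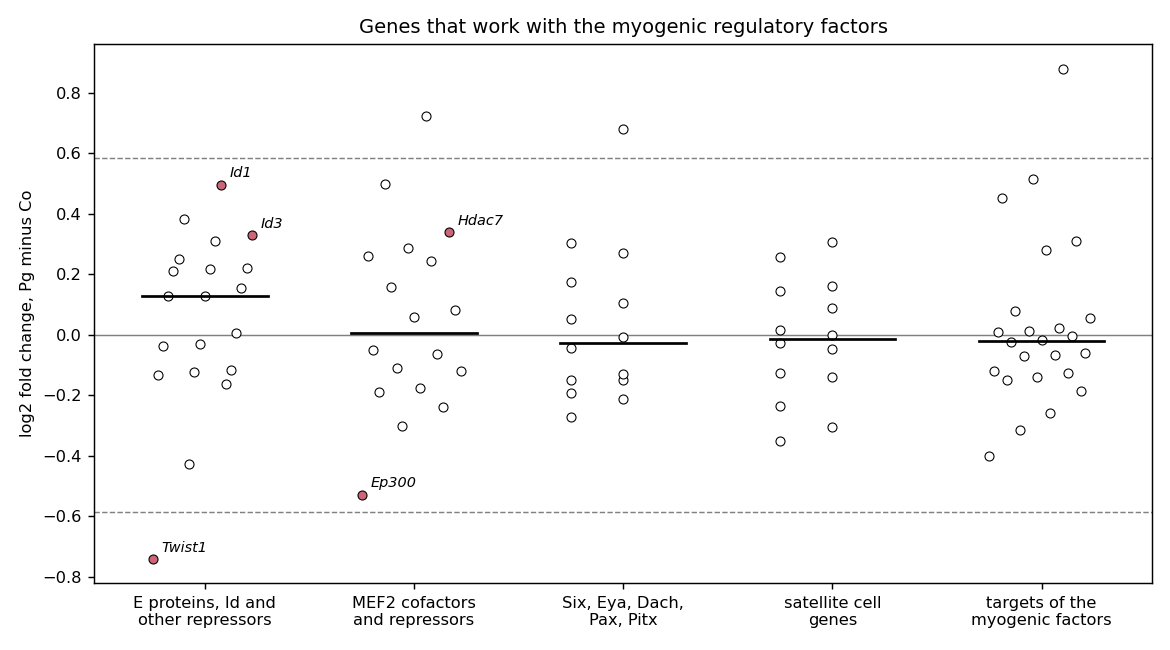
Log2 fold change (Pg minus Co) of the 90 tested genes in 5 lists, 1 point a gene at its brightest probe, with the list median as a bar, a 1.5-fold change as dashed lines and a q under 0.1 as filled, named points. The 5 filled points lie in 2 of the lists, and the medians lie between -0.03 and 0.13.

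None of the 14 tested homeobox genes and EYA or DACH cofactors had a q under 0.1, with 3 at an unadjusted p under 0.05 and a median log2 fold change of -0.03. Over all 22323 genes 20.3% had an unadjusted p under 0.05. The largest differences were 0.68 for *Meox1* (q = 0.10) and 0.30 for *Dach1* (q = 0.39). None of 14 satellite cell genes passed either, with 2 at an unadjusted p under 0.05 and a median of -0.01. There *Sdc4* (-0.35, q = 0.42) and *Cxcr4* (-0.31, q = 0.37) differed most.

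None of 24 targets of the myogenic factors had a q under 0.1, with 5 at an unadjusted p under 0.05 and a median of -0.02. *Ckm*, the muscle creatine kinase whose enhancer is a classical MYOD1 target, had a log2 fold change of -0.15 (q = 0.19), and *Chrna1*, the acetylcholine receptor subunit, -0.14 (q = 0.46). *Myh3*, the embryonic myosin heavy chain, had the largest difference, at 12.20, 12.50, 11.93 and 12.40 in Co mice and 12.34, 14.54, 12.44 and 13.25 in Pg mice. The groups overlapped, and the log2 fold change of 0.88 did not pass (q = 0.30). Pg replicate 2 was the highest array for *Myh3*, *Mef2b* and *Chrng*, the fetal receptor subunit (5.42, 5.46, 4.71 and 4.71 in Co mice, 4.37, 6.35, 5.57 and 6.07 in Pg mice). Myosin heavy chain genes are close copies of each other, so the assignment of their signal to 1 gene is uncertain.

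For 9 further genes of the lists, a probe other than the brightest had a q under 0.1, lower in Pg mice for 7 and higher for 2. The lower ones were *Hdac9*, *Carm1*, *Eya3*, *Dach2*, *Itga7*, *Des* and *Rb1*, by 0.26 to 0.68 on the log2 scale, and the higher ones *Eya1* (0.30) and *Chrng* (0.76). These were 9 of the 64 other tested probes of list genes, against the 7.82% of all probes with a q under 0.1, of which 2028 of 2644 were lower in Pg mice. At these probes *Hdac9*, *Eya3*, *Dach2* and *Chrng* also passed 1.5-fold, 4 of the 64, against 1.61% of all probes. The brightest probes of the 9 genes did not pass. Of the 20 muscle fibre markers, *Atp2a1*, the calcium pump of fast fibres, fell by 0.44 (q = 0.041), and no other had a q under 0.1.

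Markers of other cell types were set beside these calls. Over all genes tested 47.2% had higher means in Pg mice. Of 9 tested macrophage genes 8 had higher means in Pg mice, none with a q under 0.1, and the mean level of the list was 8.93 to 9.60 in Co mice and 8.78 to 10.30 in Pg mice (exact permutation test, p = 0.4). Of 8 endothelial genes 6 had higher means, and *Kdr*, a receptor of vascular endothelial growth factor, rose by 0.57 (q = 0.057). The mean level of the endothelial list was 10.47 to 10.83 in Co mice and 10.66 to 10.83 in Pg mice (exact permutation test, p = 0.143). Among the other lists, higher means were found for 9 of 12 adipocyte, 6 of 11 brown adipocyte, 5 of 8 fibroblast, 5 of 8 Schwann cell, 2 of 8 smooth muscle and 6 of 20 muscle fibre genes. The part of macrophages and endothelial cells in the higher values of *Id1*, *Id3* and *Hdac7* was not tested.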

How the data were processed

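Total RNA of 8 mice was labelled with Cy3 and hybridised to Agilent SurePrint G3 mouse arrays. The deposited scanner files were made by the authors with Agilent Feature Extraction 11.0.1.1, and the processed-signal intensity in them is background-subtracted. The deposited table of the authors' normalized log2 values was used as an alternative, and its columns of fold changes and p-values from the authors' own comparison were not used. Of 59305 spots that were no controls, outlier spots (90 to 150 an array) were left out and spots of 1 probe averaged. Intensities were quantile-normalized, set to at least 1 and taken to log2, and the 33819 probes that the scanner called above background on 4 or more arrays were fitted with limma 3.58.1 in R 4.3.3 on all 8 arrays without covariates (q, Benjamini-Hochberg). The fit was tested on simulated data with planted changes of 1 log2 unit or more. The largest difference of the 16 tested probes was 0.40, so the simulation does not cover changes of their size. Replicates are separate mice, which the methods say came from 1 supplier and were allotted to the groups at random. Correlations between arrays of 0.986 to 0.994 left no array identical to another.

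The named genes are all probes of the 9 genes, the list genes with a q under 0.1 and the 2 largest differences of each list, the 2 nearest patterns, and markers as counts. Members and lists were chosen with earlier results of these data known. The comparison of upstream with downstream probes, the naming of further genes beside these (the ID and E protein genes, class IIa deacetylases, *Ckm*, *Chrna1*, *Pax3*, *Atp2a1*, *Kdr* and those passing only at a second probe) and the showing of the last 2 probes of a gene were chosen after the values were seen. Of the 3019 transcripts, 99.0% had their 2 probes in the same order in the genome. Of the 18 probes 13 matched a RefSeq accession of the reference table, all to the gene the array names. Whether a probe lies in a coding or an untranslated stretch was not analysed here.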

Additional observations from a re-analysis of the deposited data

Results flagged for a closer look

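Of 60 groups of 4 arrays checked (18 probes of the 9 genes and 12 named list genes, Co and Pg apart), 1 held a value far from its other 3 by Dixon's ratio at the 95% level, and chance gives about 1 in 20. It was the *Six4* probe at start 1384, where Pg replicate 1 had a log2 signal of 2.46 and the other Pg arrays 2.15 to 2.20. This probe was above background on no array.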

How the results depend on the processing

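No probe of the 9 genes was differentially expressed under any setting that measured it. The authors' table held 14 of the 16 tested probes, without *Mef2d* at start 1870 and *Mef2c* at start 1845. The count of their probes with a q under 0.1 was 1 as reported and with 75th percentile scaling or the authors' table. It was 2 with normexp on the mean signal, with the median signal not corrected for background and with only probes above background on all 8 arrays, where *Mef2d* at start 2340 joined *Mef2a* at start 1784. It was 0 without normalization between arrays, without a filter on dim probes and with the replicate block, and 0 to 1 with an array left out.

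The count of list genes, 5 as reported, was 8 with normexp, 3 with 75th percentile scaling, 0 without normalization or with the block, and 0 to 7 with an array left out. Over all probes, 2644 had a q under 0.1, against 3452 with normexp, 3065 with the median signal, 3009 with the stricter filter, 1546 with 75th percentile scaling, 29 without normalization, 1269 without the filter, 1715 in the authors' table, 0 with the block and 3 to 2378 with an array left out (3 without Co replicate 3). Of these, 546 also passed 1.5-fold, against 94 with normexp, 108 with the median signal, 283 with 75th percentile scaling, 27 without normalization, 318 with the stricter filter, 106 in the authors' table, 0 with the block and 3 to 697 with an array left out.

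The replicate block takes the number in the labels as a pair, but arrays of the same number did not deviate from their group means together (r = 0.06, -0.03, -0.07 and 0.18), and the block leaves fewer degrees of freedom. Signs turned for differences near 0. Without normalization *Myf6* was at 0.021 and *Pax7* at 0.045. With an array left out the log2 fold changes ran from -0.058 to 0.080 for *Myf6*, -0.24 to 0.056 for *Myog*, -0.095 to 0.056 for *Pax7*, -0.088 to 0.039 for *Mef2a* at start 4840, -0.050 to 0.10 for *Six4* at start 5884 and -0.38 to -0.28 for *Mef2a* at start 1784. The cause of these changes was not tested. *Myf5* and *Six4* at start 1384 were too dim to be measured.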
